A study of Homo sapiens with 6 samples.

Results

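The genes described here are 10 parts of the NRF2 antioxidant response: the transcription factor itself (NFE2L2), its negative regulator (KEAP1) and 8 well-known target genes (GCLC, GCLM, TXNRD1, SRXN1, NQO1, ME1, HMOX1 and OSGIN1). They were found by matching their symbols to the Ensembl gene identifiers of the expression table, and all 10 were among its 16922 genes. RNA was sequenced from 3 libraries labelled FOXD1null and from 3 libraries of the parental line 786-O, to ask which transcripts differ when the transcription factor FOXD1 is lost in clear cell renal cell carcinoma cells. 786-O is an established human line of that tumor with no functional VHL, and FOXD1null is a derivative of it whose genotype is given as FOXD1 null. Both lines were grown on plastic in RPMI-1640 with serum to 70% confluency, and neither was given an oxidant or another treatment. The sources used here do not give how the FOXD1null line was made or whether it is 1 clone, and with 1 such line an effect of the genotype and a difference of the line cannot be told apart.

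NRF2 is held at a low level by KEAP1, an adaptor that brings it to the CUL3 ubiquitin ligase for degradation. Oxidants and electrophiles modify cysteines of KEAP1, NRF2 then escapes degradation, pairs with a small MAF protein and binds the antioxidant response element in front of genes for glutathione synthesis, thioredoxin recycling, NADPH supply, quinone reduction and heme breakdown. The activity of NRF2 is thus set mostly at the protein level, which an RNA measurement does not see. In kidney carcinoma the pathway is best known from papillary tumors, some of which carry mutations in NFE2L2 or CUL3.

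The element by which NRF2 acts was looked for in the promoters of the 10 genes, and the matches are shown since it is the sequence through which NRF2 is known to reach its targets. RefSeq (GRCh38.p14) gave a window of 250 bases before and 50 bases after the start site for 9 of the 10 genes, all except HMOX1. The core TGACNNNGC, read on both strands, was present in 3 of the 9 windows (GCLM, TXNRD1 and ME1), against 13.3% of all 35116 windows. Each match is printed in capitals with 15 bases on either side, on the strand of the gene. In 3 of the 5 the core lies on the opposite strand.
GCLM, chr1:93909441-93909479, minus strand, opposite: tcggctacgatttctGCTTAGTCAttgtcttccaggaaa
TXNRD1, chr12:104215665-104215703, plus strand, same: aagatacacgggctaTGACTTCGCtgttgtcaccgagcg
TXNRD1, chr12:104215756-104215794, plus strand, opposite: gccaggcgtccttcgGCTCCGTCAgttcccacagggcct
ME1, chr6:83431165-83431203, minus strand, same: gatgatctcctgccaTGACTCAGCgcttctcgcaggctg
ME1, chr6:83431017-83431055, minus strand, opposite: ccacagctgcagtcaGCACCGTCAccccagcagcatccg
The first base of the match stood at -34 from the start site in GCLM, at -99 and -8 in TXNRD1, and at -137 and 11 in ME1. The match of ME1 at -137 also held TGANTCA, the element of AP-1 factors, which was found in 2 of the 9 windows (ME1 and OSGIN1) and in 7.71% of all windows. The windows of NFE2L2, KEAP1, GCLC, SRXN1, NQO1 and OSGIN1 held no TGACNNNGC, which says only that these letters are not in those 300 bases. A match is a stretch of letters, not a measured binding site.

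Each library held between 30982463 and 37843830 reads counted in genes, and values are given as normalized counts, the count of a gene divided by the size factor of the library. FOXD1 RNA went against the label: it was 1277, 1048 and 901 in the libraries labelled FOXD1null, against 432, 498 and 480 in 786-O, a log2 fold change of 1.18 (limma, adjusted p = 3.9e-04). An RNA level does not show whether the protein was lost, so the group is called by its label throughout. Replicate 1 of the libraries labelled FOXD1null stood apart from the other two, with a chi-square per gene of 49.2 and 54.0 against them, where the other 4 pairs of replicates gave 2.47 to 5.38. For 10 genes with a 786-O mean of at least 500 that were at 2% of it or less in FOXD1null replicates 2 and 3, replicate 1 held a median of 21.7% of the 786-O mean. The heart gene MYH6 meets this rule, though its 786-O mean of 910 rests on replicate 2 (0, 2703 and 27.6 in 786-O). For such a gene the percentage is not taken against a level typical of 786-O. 786-O replicate 2 had the highest sums over markers of heart and gut. The sum over cardiomyocyte markers (5 of 7 in the table) was 412, 3.03 and 2.91 in the libraries labelled FOXD1null, against 2.23, 4685 and 58.9 in 786-O, and the sum over gut carcinoma markers (6 of 8 in the table) was 102, 4.04 and 7.77 in the libraries labelled FOXD1null, against 12.3, 1169 and 67.2 in 786-O. Of the leukocyte, endothelium, fibroblast and hepatocyte markers, 1 of 7, 1 of 6, 3 of 6 and 5 of 8 were in the table. The fibroblast gene COL1A1 was lower, at 383, 303 and 262 in the libraries labelled FOXD1null, against 670, 641 and 587 in 786-O (log2 fold change -1.01, adjusted p = 0.0011). LUM, another fibroblast gene, was also lower, at 18.3, 0 and 0 in the libraries labelled FOXD1null, against 125, 128 and 84.6 in 786-O (adjusted p = 0.0052, and 0.093 in DESeq2). The hepatocyte gene SERPINA1 was higher, at 8171, 9024 and 8599 in the libraries labelled FOXD1null, against 2671, 3153 and 2856 in 786-O (log2 fold change 1.57, adjusted p = 2.5e-05). The hepatocyte genes ALB, FGA, FGB and FGG went the other way (log2 fold changes of -0.99, -2.04, -3.38 and -3.22) and did not pass. Each was highest in 786-O replicate 2, at 139, 77.1, 330 and 335, and at most 37.7 in any library labelled FOXD1null. Of the 10 tubule carcinoma markers, all in the table, 3 were higher (30%: PAX8, VIM and CDH2) and 3 were lower (30%: PAX2, LHX1 and CDH6). Over all genes tested, 16.3% were higher and 17.1% were lower. PAX8, the lineage factor of renal tubule tumors, was at 8076, 8061 and 7964 in the libraries labelled FOXD1null, against 6724, 6518 and 6846 in 786-O. CDH6, a renal cadherin, was at 8359, 6514 and 6431 in the libraries labelled FOXD1null, against 27838, 25953 and 26776 in 786-O (log2 fold change -1.93, adjusted p = 2.5e-05). LHX1 was at -1.03 (adjusted p = 6.7e-04) and PAX2 at -0.35 (adjusted p = 0.011, and 0.058 without 786-O replicate 1). The part of these marker differences in the results was not tested. The results were therefore also computed without each of these libraries. Gene positions are given in hg38 from GENCODE 44.

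NQO1 was the gene of the 10 that differed: its RNA was lower in the libraries labelled FOXD1null, and none of the 10 was higher. All 10 genes passed the filter on low values, with means between 254 and 16608 over the 6 libraries. The test was limma's moderated test on log2(normalized count + 1) over 16901 genes with the Benjamini-Hochberg adjustment, and the threshold for a call was an adjusted p of 0.05. Of the 10 genes, 1 was lower, 0 were higher and 9 did not pass, where 17.1% of all genes tested were lower and 16.3% were higher (2888 and 2751 genes, or 3878 and 2040 with library totals made equal). At an unadjusted p of 0.05 the counts were also 1 lower and 0 higher, and edgeR and DESeq2 on recovered reads gave the same counts. The median log2 fold change of the 10 genes was -0.0041, against -0.0073 for all genes tested, and their median absolute log2 fold change was 0.060, against 0.26. In 6 of the 10 genes the absolute log2 fold change was under 0.1, which held for 22.1% of all genes tested. The genes tested reach down to a mean of 10, so these comparisons were not made at like abundance. The 95% intervals reached 0.14 to 0.28 on the log2 scale to either side. With 3 libraries in each group, a smaller difference could not be told from none, and a larger one need not have passed.

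**Figure D1:**
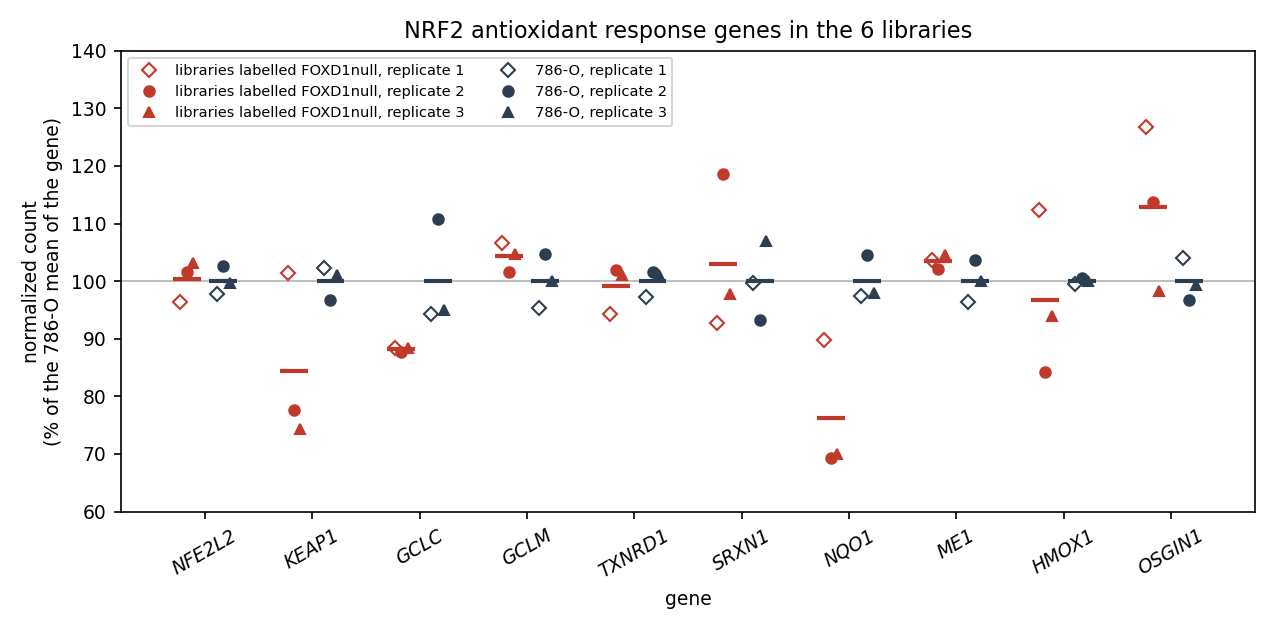
Normalized counts of the 10 NRF2 genes in each library, as a percentage of the 786-O mean of the gene (vertical axis, linear, starting at 60), with the 3 libraries labelled FOXD1null left of the 3 786-O libraries and a bar at each group mean. In FOXD1null replicates 2 and 3 NQO1 was at 69.3% and 69.9% and KEAP1 at 77.6% and 74.4%, while in replicate 1 they were at 89.8% and 101%.

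NFE2L2 (ENSG00000116044, chr2:177218667-177392756, minus strand), the gene of NRF2, differed between the groups by less than the spread between libraries. Its normalized counts were 4433, 4674 and 4742 in the libraries labelled FOXD1null, against 4494, 4717 and 4581 in 786-O. The groups overlapped, and FOXD1null replicate 1 was the lowest of the 6 libraries. The means were 4616 ± 162 in the libraries labelled FOXD1null and 4597 ± 112 in 786-O (SD, n = 3 each), and the log2 fold change was 0.0056 with a 95% interval of -0.13 to 0.14 (limma, adjusted p = 0.95). Exons of NFE2L2 share 3509 bases with HNRNPA3 on the other strand, and the sources used here do not say whether counting used the strand, so reads of these genes cannot be told apart there.

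KEAP1 (ENSG00000079999, chr19:10486125-10503558, minus strand), the sensor that directs NRF2 to degradation, was lower in 2 of the 3 libraries labelled FOXD1null. Its normalized counts were 3651, 2791 and 2676 in the libraries labelled FOXD1null, against 3681, 3479 and 3634 in 786-O. FOXD1null replicate 1 lay within the 786-O range, and replicates 2 and 3 lay below all 786-O libraries. KEAP1 averaged 3039 ± 533 in the libraries labelled FOXD1null and 3598 ± 105 in 786-O (SD, n = 3 each). The log2 fold change of -0.26 (SE 0.11) did not pass (limma, adjusted p = 0.12). Without FOXD1null replicate 1 it was -0.40 and passed (adjusted p = 1.03e-06), and over the 15 alternatives the adjusted p ranged between 1.03e-06 and 0.315. On a log2 scale with FOXD1null replicates 2 and 3 at 0 and 786-O at 100, replicate 1 stood at 105 for KEAP1. Over 6312 genes that passed without this replicate with an absolute log2 fold change of at least 0.3, the median place was 33.3 (quartiles -0.85 and 66.3), and 9.74% of them had a place as high as that of KEAP1. The part of this library in the result was not tested. The ratio of NFE2L2 to KEAP1 counts was 1.21, 1.67 and 1.77 in the libraries labelled FOXD1null, against 1.22, 1.36 and 1.26 in 786-O, a ratio with no test.

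GCLC and GCLM encode the catalytic and the modifier subunit of glutamate-cysteine ligase, the rate-limiting enzyme of glutathione synthesis, and neither passed the test. GCLC (ENSG00000001084, chr6:53497341-53616970, minus strand) was at 961, 953 and 961 in the libraries labelled FOXD1null, against 1025, 1205 and 1033 in 786-O. Each library labelled FOXD1null was below each 786-O library, and 786-O replicate 2 was the highest of all. The log2 fold change of GCLC was -0.18 (SE 0.083), which did not pass (limma, adjusted p = 0.14). It was -0.18 and passed without FOXD1null replicate 1 (adjusted p = 0.036), and it was -0.10 and did not pass without 786-O replicate 2 (adjusted p = 0.42), with adjusted p-values of 0.036 to 0.42 over the 15 alternatives. GCLC shares 305 exonic bases with GCLC-AS1 on the other strand and 529 with a long noncoding RNA on its own.

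GCLM (ENSG00000023909, chr1:93885199-93909456, minus strand) was at 3690, 3520 and 3626 in the libraries labelled FOXD1null, against 3299, 3625 and 3462 in 786-O. The groups overlapped, with FOXD1null replicate 1 the highest and 786-O replicate 1 the lowest. GCLM had a log2 fold change of 0.062 with an interval of -0.084 to 0.21 (limma, adjusted p = 0.50). The ratio of GCLM to GCLC counts was 3.84, 3.69 and 3.77 in the libraries labelled FOXD1null, against 3.22, 3.01 and 3.35 in 786-O. This ratio was higher in each library labelled FOXD1null than in any 786-O library, with means of 3.77 ± 0.072 in the libraries labelled FOXD1null and 3.19 ± 0.17 in 786-O (SD, n = 3 each). The ratio was formed after the values were seen and has no test, and the smallest p of an exact permutation test of 3 libraries against 3 is 0.1.

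TXNRD1 and SRXN1, which keep thioredoxin and peroxiredoxins reduced, differed between the groups by less than the spread between libraries. TXNRD1 (ENSG00000198431, chr12:104215779-104350307, plus strand) encodes cytosolic thioredoxin reductase and has a pair of matches to the response element in its window. It was at 15736, 17007 and 16852 in the libraries labelled FOXD1null, against 16236, 16943 and 16873 in 786-O. Replicate 1 was the lowest library of each group, and the groups overlapped. TXNRD1 had a log2 fold change of -0.014 with an interval of -0.15 to 0.13 (limma, adjusted p = 0.89), so that a change of TXNRD1 outside 0.90-fold to 1.09-fold lay beyond the interval.

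SRXN1 (ENSG00000271303, chr20:646615-653200, minus strand) encodes sulfiredoxin, which repairs overoxidized peroxiredoxins. Its normalized counts were 248, 317 and 261 in the libraries labelled FOXD1null, against 267, 249 and 286 in 786-O. FOXD1null replicate 2 was the highest and replicate 1 the lowest of the 6 libraries. SRXN1 had a log2 fold change of 0.037, with the widest interval of the 10 genes at -0.24 to 0.31 (limma, adjusted p = 0.85). SRXN1 shares 2292 of its 2528 exonic bases with a read-through gene of the same strand, so its count is uncertain.

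NQO1 (ENSG00000181019, chr16:69706996-69726668, minus strand) encodes the quinone reductase that is often read as a measure of NRF2 activity, and it fell in the libraries labelled FOXD1null. Its normalized counts were 5509, 4253 and 4290 in the libraries labelled FOXD1null, against 5984, 6412 and 6016 in 786-O. Every library labelled FOXD1null was below every 786-O library, and FOXD1null replicate 1 was the nearest to 786-O. NQO1 averaged 4684 ± 715 in the libraries labelled FOXD1null and 6137 ± 239 in 786-O (SD, n = 3 each). On the log2(normalized count + 1) scale the fold change was -0.40 (SE 0.10, interval -0.64 to -0.16), a level of 0.64-fold to 0.89-fold (limma, adjusted p = 0.019). A difference at least as large in size was seen in 33.7% of all genes tested. Groups did not overlap, with the libraries labelled FOXD1null lower, in 2 of the 10 genes (NQO1 and GCLC) and in 24.9% of all genes tested, and with them higher in 0 of the 10 genes and in 24.1% of all genes.

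The call of NQO1 held in edgeR (log2 fold change -0.40, adjusted p = 0.018) and in DESeq2 (-0.39, adjusted p = 0.0040). Without FOXD1null replicate 1 the log2 fold change was -0.52 (adjusted p = 2.23e-08). It did not pass when any other single library was left out, with log2 fold changes of -0.34 and -0.34 with replicates 2 and 3 of the libraries labelled FOXD1null left out and -0.42, -0.37 and -0.41 with replicates 1, 2 and 3 of 786-O left out. Over the 15 alternatives the adjusted p of NQO1 lay between 2.23e-08 and 0.078. NQO1 shares 575 exonic bases with a long noncoding RNA of the other strand. The ratio of NQO1 to TXNRD1 counts was 0.350, 0.250 and 0.255 in the libraries labelled FOXD1null, against 0.369, 0.378 and 0.357 in 786-O, lower in each library labelled FOXD1null than in any 786-O library. This ratio was formed after the values were seen and has no test.

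ME1 (ENSG00000065833, chr6:83210402-83431051, minus strand) encodes cytosolic malic enzyme, which makes NADPH, and carries 2 matches to the response element in its window. It was at 2503, 2465 and 2521 in the libraries labelled FOXD1null, against 2327, 2499 and 2411 in 786-O. The groups overlapped by 1 library, 786-O replicate 2, which was above FOXD1null replicate 2. ME1 had a log2 fold change of 0.050 with an interval of -0.091 to 0.19 (limma, adjusted p = 0.58).

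HMOX1 (ENSG00000100292, chr22:35380361-35394214, plus strand) encodes heme oxygenase 1, which breaks down heme and is induced by many stresses. Its normalized counts were 554, 415 and 463 in the libraries labelled FOXD1null, against 491, 496 and 493 in 786-O. The 786-O libraries were within a narrow range, and the libraries labelled FOXD1null lay on both sides of it, with replicate 1 above and replicates 2 and 3 below. The log2 fold change was -0.057 with an interval of -0.31 to 0.20 (limma, adjusted p = 0.74). Without FOXD1null replicate 1 it was -0.17 (adjusted p = 0.070, and 0.070 to 0.85 over the 15 alternatives).

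OSGIN1 (ENSG00000140961, chr16:83931311-83966332, plus strand), an inhibitor of growth induced under oxidative stress, was at 302, 271 and 234 in the libraries labelled FOXD1null, against 248, 230 and 236 in 786-O. FOXD1null replicates 1 and 2 were the highest libraries, and replicate 3 lay among the 786-O libraries. The log2 fold change of 0.17 was the highest of the 10 genes and did not pass (interval -0.099 to 0.43, limma, adjusted p = 0.31). Exons of OSGIN1 share 457 bases with MLYCD on the same strand.

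**Figure D2:**
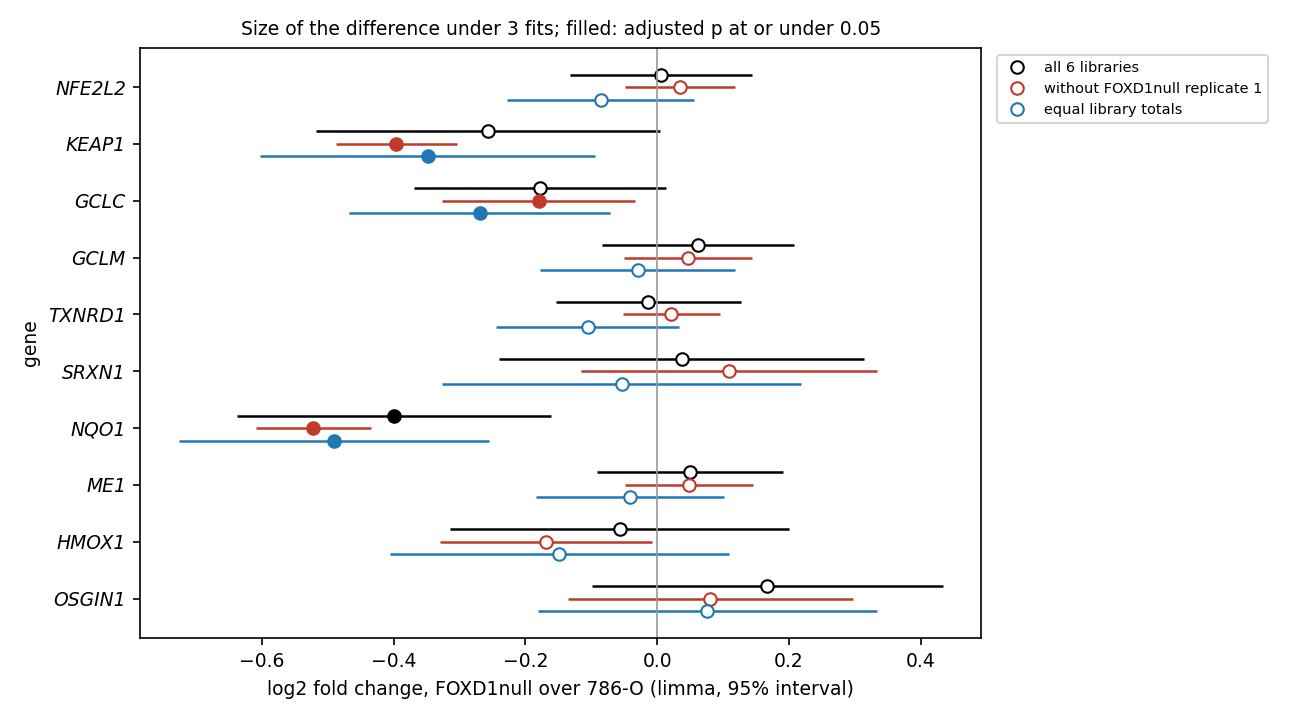
Difference between the libraries labelled FOXD1null and 786-O for the 10 NRF2 genes as a log2 fold change (horizontal axis, positive where FOXD1null is higher, limma, bars are 95% intervals), with all 6 libraries, without FOXD1null replicate 1 and with library totals made equal; filled points passed at an adjusted p of 0.05. NQO1 passed in all 3 fits, at -0.40, -0.52 and -0.49, KEAP1 and GCLC passed in the other 2, and the remaining 7 genes passed in none.

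Without FOXD1null replicate 1, 3 of the 10 genes were lower (NQO1, KEAP1 and GCLC) and 0 were higher, where 27.6% of all genes tested were lower and 27.4% were higher. The same 3 genes were lower with library totals made equal in place of the size factors, a scaling that shifted the median gene by -0.091 on the log2 scale. With it the log2 fold changes were -0.49 for NQO1 (adjusted p = 0.0074), -0.35 for KEAP1 (adjusted p = 0.041) and -0.27 for GCLC (adjusted p = 0.042). The fold changes of these 3 genes were negative under each of the 15 alternatives. In NQO1 and GCLC the groups did not overlap, so leaving out a library could not change the sign.

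Per kilobase of the MANE Select transcript, TXNRD1 was the most abundant of the 10 transcripts in both groups and SRXN1 the least. TXNRD1 was at 4283 ± 180 normalized counts per kb in the libraries labelled FOXD1null and 4322 ± 101 in 786-O. NQO1 was at 1858 ± 283 per kb in the libraries labelled FOXD1null and 2435 ± 94.6 in 786-O, and NFE2L2 was at 1887 ± 66.3 in the libraries labelled FOXD1null and 1880 ± 45.9 in 786-O (SD, n = 3 each). The order of these 2 genes was not the same in all libraries labelled FOXD1null. NQO1 was above NFE2L2 in replicate 1 (normalized counts of 5509 and 4433). It was below NFE2L2 in replicates 2 and 3 (4253 and 4290 against 4674 and 4742), with transcripts of 2521 and 2446 bases. In 786-O NQO1 was above NFE2L2 in each library. KEAP1 followed at 1185 per kb in the libraries labelled FOXD1null and 1403 in 786-O. In the libraries labelled FOXD1null the next were ME1 (748), GCLM (740), HMOX1 (307) and GCLC (253), and in 786-O they came in the same order at 723, 709, 317 and 287. OSGIN1 (140 in the libraries labelled FOXD1null and 124 in 786-O) and SRXN1 (109 in the libraries labelled FOXD1null and 106 in 786-O) were the lowest of all. Since the count of SRXN1 is uncertain, as given above, so is its place in this order.

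The 138 tested genes within 5 Mb of NQO1 had a median log2 fold change of 0.077. Around KEAP1 it was 0.017 (233 genes), and around GCLC -0.016 (29 genes). The pattern most like that of NQO1 over the 6 libraries, by Pearson correlation of log2 values among 11803 genes with a mean of at least 100, was that of NCBP2, a subunit of the nuclear cap-binding complex (r = 0.998). Next was the long noncoding RNA gene DLEU2 (r = 0.998). The correlation rests on 6 libraries with FOXD1null replicate 1 among them, and 576 genes had one above 0.95. DLEU2 also fell (log2 fold change of -0.44, limma, adjusted p = 0.019), and NCBP2, at -0.15, did not pass (adjusted p = 0.11).

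Beside the 10 genes, 135 other genes of the pathway were read in 7 lists, of which 131 were tested. Of these, 31 were higher (23.7%), 30 were lower (22.9%) and 70 did not pass, where 16.3% of all 16901 genes were higher and 17.1% were lower. The median log2 fold change of the pathway genes was -0.010 and their median absolute log2 fold change was 0.29, against 0.26 over all genes. The counts were 45 higher (34.4%) and 50 lower (38.2%) without FOXD1null replicate 1, where all genes gave 27.4% and 27.6%. Without 786-O replicate 2 they were 24 higher and 24 lower (1985 and 2029 of all genes). With equal library totals they were 22 higher and 40 lower (2040 and 3878 of all genes). In each list, the percentages higher and lower are to be read against these shares over all genes.

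**Figure D3:**
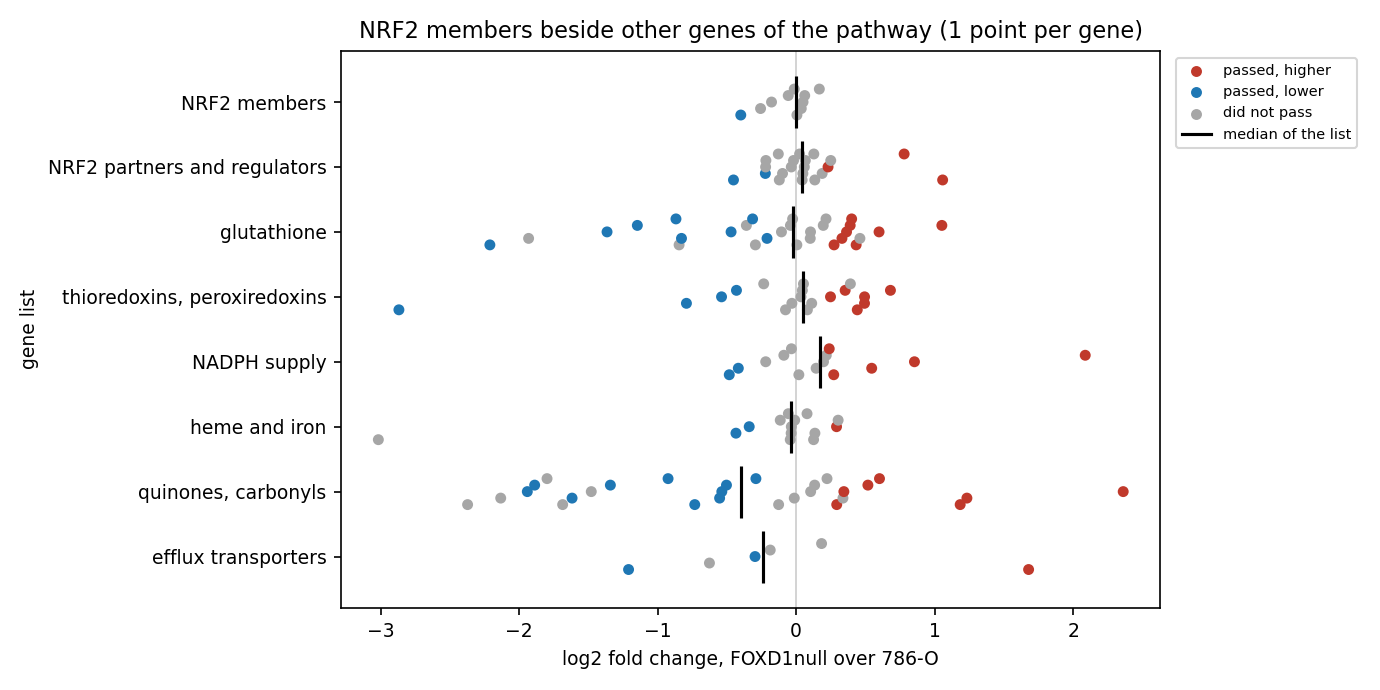
Difference between the libraries labelled FOXD1null and 786-O as a log2 fold change (horizontal axis, positive where FOXD1null is higher, limma) for each gene of the NRF2 genes and of 7 other pathway lists, 1 point per gene, colored by whether it passed at an adjusted p of 0.05. The 10 NRF2 genes lay between -0.40 and 0.17, and genes for quinones and carbonyls between -2.37 and 2.36 with a median of -0.40. The ends of that second range are genes with low counts. ALDH3A1, at -2.37, did not pass and was at 150 in 786-O replicate 2 and at most 18.3 in any other library. EPHX2, at 2.36, had means of 40.8 in the libraries labelled FOXD1null and 7.33 in 786-O.

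Among partners and regulators of NRF2, 3 of 21 tested genes were higher (14.3%) and 2 were lower (9.52%), below the 16.3% and 17.1% over all genes, with a median log2 fold change of 0.043. With equal library totals 2 were higher, 4 were lower and the median was -0.048. Without FOXD1null replicate 1 the counts were 7 (33.3%) and 3 (14.3%), where all genes gave 27.4% and 27.6%. Without 786-O replicate 2 they were 2 and 1. MAFF, a small MAF protein that pairs with NRF2, rose to 508, 535 and 513 in the libraries labelled FOXD1null, against 195, 340 and 231 in 786-O (log2 fold change 1.06, limma, adjusted p = 0.0032). The groups did not overlap for MAFF, and the 786-O libraries were the more spread. NFE2L3, the NRF2 relative NRF3, rose to 4882 ± 378 in the libraries labelled FOXD1null, against 2838 ± 51.2 in 786-O (log2 fold change 0.78, adjusted p = 1.9e-04). MAFG rose by 0.23 (adjusted p = 0.023), a call that was lost when any single library other than FOXD1null replicate 1 was left out (log2 fold changes of 0.21 to 0.25) and with equal library totals (0.14). MAFK, at 0.059, did not pass (adjusted p = 0.55). EP300, a coactivator, was at 2157, 2980 and 2955 in the libraries labelled FOXD1null, against 3736, 3346 and 3893 in 786-O (log2 fold change -0.45, adjusted p = 0.028), and it did not pass with 786-O replicate 1 (-0.44) or 3 (-0.41) left out.

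In BACH1 and SQSTM1, as in KEAP1, FOXD1null replicate 1 lay apart from replicates 2 and 3. BACH1, the repressor that competes with NRF2 for the response element, was at 978, 1688 and 1640 in the libraries labelled FOXD1null, against 1176, 1095 and 1249 in 786-O. Replicate 1 was below all 786-O libraries and replicates 2 and 3 were above them, and the log2 fold change of 0.25 did not pass (limma, adjusted p = 0.36). SQSTM1, the autophagy receptor that binds KEAP1, was at 10570, 8680 and 8274 in the libraries labelled FOXD1null, against 10717, 10456 and 10715 in 786-O. Its log2 fold change of -0.22 did not pass either (adjusted p = 0.11). Without FOXD1null replicate 1 the log2 fold changes were 0.51 for BACH1 (adjusted p = 2.0e-06, and 2.0e-06 to 0.73 over the 15 alternatives) and -0.33 for SQSTM1 (adjusted p = 1.3e-06, and 1.3e-06 to 0.28). CUL3, the ligase scaffold, was at 3274 ± 74.0 in the libraries labelled FOXD1null and 3506 ± 113 in 786-O and did not pass (log2 fold change -0.098, adjusted p = 0.25).

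Of 29 tested genes of glutathione supply and use, 8 were higher (27.6%) and 8 were lower (27.6%), against 16.3% and 17.1% of all genes, with a median log2 fold change of -0.026. Counts were 5 higher and 9 lower with equal library totals, 9 (31.0%) and 12 (41.4%) without FOXD1null replicate 1, against 27.4% and 27.6% of all genes, and 7 and 5 without 786-O replicate 2. SLC3A2, the partner chain of the cystine importer, rose to 18144 ± 679 in the libraries labelled FOXD1null, against 11977 ± 84.1 in 786-O (log2 fold change 0.60, limma, adjusted p = 2.3e-04). CHAC1, which degrades glutathione, rose by 1.05 (adjusted p = 4.4e-04), and the glutathione enzymes GPX3 and GSTM3 fell by 0.83 and 1.37 on the log2 scale (adjusted p = 8.4e-04 and 4.7e-04). Their relatives, outside the rule for named genes, went both ways. GPX1, GPX4, GPX8, GSTM4 and GSTO1 passed as higher (log2 fold changes of 0.40, 0.43, 0.27, 0.36 and 0.39). GSTA4, GSTT2B, GSTZ1 and MGST1 passed as lower (-0.87, -2.21, -0.47 and -0.31). Of these, only GPX4, GSTM4 and GSTT2B passed under each of the 15 alternatives. SLC7A11, the transporting chain of the cystine importer and itself an NRF2 target, was at 3219, 5680 and 6032 in the libraries labelled FOXD1null, against 3226, 3769 and 3481 in 786-O. Replicate 1 was just below the lowest 786-O library while replicates 2 and 3 were above all of them, and the log2 fold change of 0.46 did not pass (adjusted p = 0.14). Without FOXD1null replicate 1 it was 0.75 (adjusted p = 1.0e-08), and over the 15 alternatives the adjusted p lay between 1.0e-08 and 0.34.

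Among 19 thioredoxin and peroxiredoxin genes, 6 were higher (31.6%) and 4 were lower (21.1%), beside 16.3% and 17.1% over all genes, with a median log2 fold change of 0.053. With equal library totals 4 were higher, 4 were lower and the median was -0.039, and without FOXD1null replicate 1 the counts were 7 and 7 (36.8% each, where all genes gave 27.4% and 27.6%), and without 786-O replicate 2 they were 4 and 3. The peroxiredoxins PRDX4, PRDX5 and PRDX6, which reduce peroxides, rose by 0.68, 0.49 and 0.49 (limma, adjusted p = 0.0010, 0.0017 and 0.0013), and FOXD1null replicate 1 was farther from 786-O than replicates 2 and 3 in each. PRDX1, PRDX2 and PRDX3 did not pass, at 0.081, 0.053 and -0.077 (limma, adjusted p = 0.53, 0.69 and 0.47). Without FOXD1null replicate 1, PRDX3 was at -0.14 and passed as lower (limma, adjusted p = 0.0034). PRDX4 was at 6784, 5491 and 5401 in the libraries labelled FOXD1null, against 3594, 3662 and 3712 in 786-O. SESN1, a stress-responsive sestrin, fell by 0.54 (adjusted p = 0.0075).

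Of 14 genes of NADPH supply, 5 were higher (35.7%) and 2 were lower (14.3%), where all genes gave 16.3% and 17.1%, and the median log2 fold change was 0.17. With equal library totals 3 were higher, 4 were lower and the median was 0.080. Without FOXD1null replicate 1 the counts were 7 (50%) and 4 (28.6%), where all genes gave 27.4% and 27.6%. Without 786-O replicate 2 they were 3 and 2. MTHFD2 and ME2, mitochondrial enzymes of folate metabolism and of malate oxidation, rose by 0.85 and 0.55 (limma, adjusted p = 4.4e-04 and 4.1e-04). IDH1, the cytosolic isocitrate dehydrogenase, fell to 3987, 3734 and 3882 in the libraries labelled FOXD1null, against 5415, 5473 and 5323 in 786-O (log2 fold change -0.48, adjusted p = 6.1e-04). The groups did not overlap for any of these 3 genes.

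Of 14 tested heme and iron genes, 1 was higher (7.14%) and 2 were lower (14.3%), against 16.3% and 17.1% of all genes, and the median log2 fold change was -0.035. The counts were 4 higher (28.6%) and 7 lower (50%) without FOXD1null replicate 1, where all genes gave 27.4% and 27.6%. They were 1 and 4 with equal library totals, where 2040 of all genes were higher and 3878 were lower. BLVRB, the biliverdin reductase B downstream of heme oxygenase, rose by 0.29 (limma, adjusted p = 0.0085), or by 0.27 without 786-O replicate 3, where it did not pass. The ferritin receptor NCOA4 fell by 0.34 (adjusted p = 0.0034) and the heme transporter SLC48A1 fell by 0.43 (adjusted p = 0.019), the second of which did not pass with FOXD1null replicate 2 (-0.34) or 786-O replicates 1 (-0.44) or 3 (-0.39) left out. FTH1, the ferritin heavy chain and an NRF2 target, was at 23350, 23944 and 22141 in the libraries labelled FOXD1null, against 21302, 20974 and 21326 in 786-O. Its log2 fold change was 0.13 and did not pass (adjusted p = 0.14) although the groups did not overlap.

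Enzymes of quinones, carbonyls and other xenobiotics had the largest median absolute log2 fold change of the 7 lists, 0.67, with 7 of 28 tested genes higher (25%), 10 lower (35.7%) and a median of -0.40. The shares over all genes were 16.3% and 17.1%. The counts were 9 (32.1%) and 14 (50%) without FOXD1null replicate 1, where all genes gave 27.4% and 27.6%, and without 786-O replicate 2 they were 6 and 9. ALDH1A1, which oxidizes retinal and lipid aldehydes, fell to 7368, 4966 and 4959 in the libraries labelled FOXD1null, against 21827, 20712 and 20344 in 786-O (log2 fold change -1.89, limma, adjusted p = 8.5e-05). Its relative ALDH1A3 fell by 1.94 (adjusted p = 1.1e-04), the cytochrome CYP4F11 fell by 1.62 (adjusted p = 1.1e-04) and the aldo-keto reductase AKR1C3 fell by 1.34 (adjusted p = 0.0035). AKR1B1, the aldose reductase, rose, at 74767, 75463 and 72003 in the libraries labelled FOXD1null, against 30641, 32475 and 31452 in 786-O (log2 fold change 1.23, adjusted p = 2.5e-05), and was singled out after its values were seen. Of 6 efflux transporters, 1 was higher (16.7%) and 2 were lower (33.3%), against 16.3% and 17.1% of all genes. Without FOXD1null replicate 1 the counts were 2 (33.3%) and 3 (50%), where all genes gave 27.4% and 27.6%. ABCG2, outside the rule for named genes and chosen after its values were seen, was higher, at 93.8, 93.0 and 67.0 in the libraries labelled FOXD1null, against 21.2, 28.1 and 27.6 in 786-O (log2 fold change 1.68, adjusted p = 7.5e-04). ABCC3 fell by 1.21 (adjusted p = 3.5e-05) and ABCC5 fell by 0.30 (adjusted p = 0.022), and ABCC5 did not pass with FOXD1null replicate 2 (-0.29) or 786-O replicates 1 (-0.24) or 3 (-0.32) left out.

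Several inducible detoxifying genes had low levels except in 786-O replicate 2, the library with the highest sums over markers of heart and gut. These genes were also singled out after their values were seen, and none passed in the fit of all 6 libraries. AKR1C1 was at 60.4, 24.3 and 14.6 in the libraries labelled FOXD1null, against 36.8, 460 and 45.1 in 786-O. AKR1B10 was at 199, 136 and 143 in the libraries labelled FOXD1null, against 240, 1168 and 304 in 786-O. Its log2 fold change of -1.48 had an adjusted p of 0.058, which lay between 0.0031 and 0.14 over the 15 alternatives. It passed without 786-O replicate 2 (-0.78, adjusted p = 0.035), without FOXD1null replicate 1 (-1.65, adjusted p = 0.0031), in DESeq2 (adjusted p = 0.035) and with equal library totals (adjusted p = 0.04996), among others. AKR1C1 (-2.23, adjusted p = 0.013, and 0.013 to 0.53 over the alternatives), ALDH3A1 (-3.80, 0.016 and 0.016 to 0.80) and GPX2 (-2.70, 0.024 and 0.024 to 0.70) passed without FOXD1null replicate 1 as well. AKR1C2, ALDH3A1, CES1 and GPX2 had the same pattern, with 121 to 740 normalized counts in 786-O replicate 2 and at most 64.7 in any library labelled FOXD1null. The cardiomyocyte myosin MYH6, at 237, 0 and 1.94 in the libraries labelled FOXD1null against 0, 2703 and 27.6 in 786-O, and the carcinoma antigen CEACAM5, at 76.5, 0 and 0 in the libraries labelled FOXD1null against 0, 873 and 46.9 in 786-O, were highest in 786-O replicate 2 as well. Whether these detoxifying transcripts belong to 786-O cells was not tested, and in bulk RNA fewer cells of a type and less RNA per cell cannot be told apart. Since unique reads were counted, reads that fit more than 1 of the near-identical AKR1C genes may be missing from their counts. For the 10 NRF2 genes, 786-O replicate 2 held between 93.2% (SRXN1) and 111% (GCLC) of the 786-O mean.

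**Figure D4:**
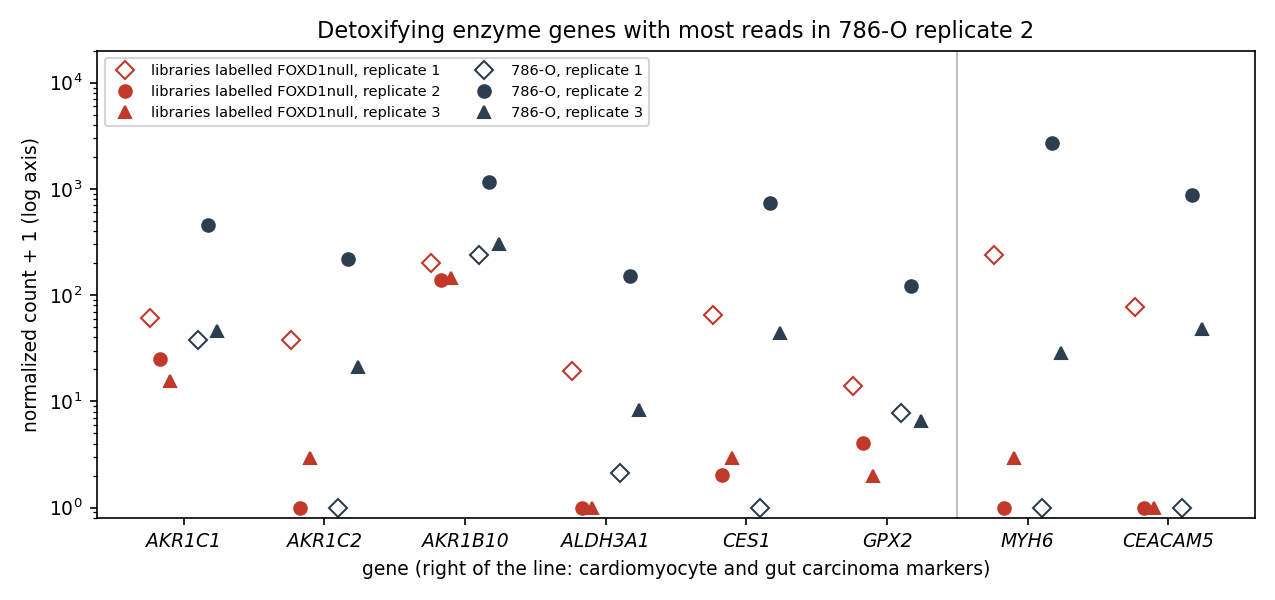
Normalized count + 1 (vertical log axis) of 6 detoxifying enzyme genes and of the markers MYH6 and CEACAM5 in each library, the libraries labelled FOXD1null left of the 786-O libraries. 786-O replicate 2 is the highest library for all 8 genes, for example 460 normalized counts of AKR1C1, and FOXD1null replicate 1 is the highest of its group.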

How the data were processed

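Per the labels and the methods of the study, the authors extracted total RNA, sequenced it in reads of 2 × 150 bp, used Trimmomatic 0.36 for trimming and STAR 2.5.2b for alignment (hg38), counted unique reads in exons by featureCounts and ran DESeq2. The deposited table holds, as a signal, normalized counts that the authors obtained by dividing each gene's count by the size factor of the library. It also holds the authors' group means, log2 fold change, p-value and adjusted p-value, and, as an other value, a difference of means, none of which was used. The sources used here give neither the authors' annotation release nor their strand setting.

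Identifiers were matched to symbols (16747 of 16922) and positions in GENCODE 44. Normalized counts were 100% whole multiples, within 0.001 of a read, of the value of 1 read, so whole reads were recovered for edgeR 4.0.16 and DESeq2 1.42.0, both run as alternatives. In R 4.3.3, limma 3.58.1 (trend option on, no covariates) compared log2(normalized count + 1) in the 16901 genes whose mean reached 10, with Benjamini-Hochberg adjustment. Since the samples are called biological triplicates without more detail, p-values measure only the spread between these libraries. Figures and summaries used Python 3.11.15, numpy 2.4.6, pandas 2.3.3 and matplotlib 3.10.9.

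The 10 genes, the lists and the markers were chosen with earlier results of these data known. Named are the 10 genes, up to 4 passing genes of each list with the largest absolute log2 fold change among genes whose mean reached 100, and MAFF, MAFG, MAFK, BACH1, CUL3, SQSTM1, SLC7A11 and FTH1 whether or not they passed; some genes that the rule names are not reported here. Nearest patterns are given for the gene with the largest fall. The 15 alternatives were pseudocounts of 0.5 and 5, no filter, a mean of at least 50, equal totals, upper-quartile scaling, edgeR, DESeq2, a replicate block and leaving out each of the 6 libraries.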

Additional observations from a re-analysis of the deposited data

How the results depend on the processing

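With 3 libraries in each group, 1 of which stood apart in each, single genes of the 10 could change their call with 1 library. The number of the 10 genes that were lower was 3 with equal library totals and 0 to 3 when 1 library was left out, and none was higher under any of the 15 alternatives. When 1 library was left out, the number of all genes that passed was 1798 to 4635 higher and 1823 to 4667 lower, and of the other pathway genes 19 to 50 were lower. The highest of each came without FOXD1null replicate 1. On recovered reads edgeR gave 2705 genes higher and 2970 lower, and DESeq2 gave 2930 and 2918. Genes near no difference changed sign without passing. NFE2L2 was at -0.086 with equal totals, -0.031 with upper-quartile scaling, -0.0057 in edgeR and between -0.014 and 0.034 when 1 library was left out (-0.0036 without FOXD1null replicate 2, -0.014 without FOXD1null replicate 3 and -0.011 without 786-O replicate 1). With equal totals GCLM was at -0.030, ME1 at -0.042 and SRXN1 at -0.054. When 1 library was left out, SRXN1 lay between -0.069 (without FOXD1null replicate 2) and 0.11 (-0.012 without 786-O replicate 2), HMOX1 between -0.17 and 0.038 (the second without FOXD1null replicate 2), and TXNRD1 between -0.035 and 0.021 (the second without FOXD1null replicate 1). The cause of these changes was not tested. Deviations from the group mean correlated at -0.25, -0.23 and 0.0052 between same-numbered libraries, and at -0.17 to 0.26 between libraries with unlike numbers. Since each mean is of only 3 libraries, these values cannot show whether the libraries were paired. With the replicate block, 1 of the 10 genes was lower (NQO1, adjusted p = 0.026, limma) and 2391 genes were higher and 2489 lower. Of the other genes named, the block also ended the calls of MAFG (adjusted p = 0.073), ABCC5 (0.055) and CAT (0.085).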

Other observations

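Genes outside the lists of the NRF2 pathway that make or remove reactive oxygen species were also read. Of 8 tested genes for sources of reactive oxygen species, 3 were higher (37.5%) and 1 was lower (12.5%), against 16.3% and 17.1% of all genes. The gene that was lower, MAOB, did not pass without 786-O replicate 2 (log2 fold change -2.08, limma, adjusted p = 0.065, and 7.0e-06 to 0.065 over the 15 alternatives). MAOA, a mitochondrial monoamine oxidase that gives off hydrogen peroxide, rose to 679, 1094 and 1044 in the libraries labelled FOXD1null, against 123, 173 and 149 in 786-O (log2 fold change 2.64, limma, adjusted p = 7.9e-05). CYBA, the p22phox subunit of NADPH oxidases, rose to 11447 ± 1310 in the libraries labelled FOXD1null, against 8786 ± 182 in 786-O (SD, n = 3 each, log2 fold change 0.38, adjusted p = 0.011), and did not pass without 786-O replicate 3 (0.37).

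Of 9 other antioxidant genes tested, 1 was higher (11.1%) and 3 were lower (33.3%), against 16.3% and 17.1% of all genes, and without 786-O replicate 2 the counts were 1 and 1. SOD3, the secreted superoxide dismutase, fell to 182, 150 and 151 in the libraries labelled FOXD1null, against 341, 291 and 360 in 786-O (log2 fold change -1.03, limma, adjusted p = 6.4e-04). PON2, a lactonase with antioxidant activity, rose to 11859 ± 135 in the libraries labelled FOXD1null, against 8682 ± 246 in 786-O (log2 fold change 0.45, adjusted p = 7.3e-04). Catalase (CAT) fell by 0.25 (adjusted p = 0.045) and the ferredoxin reductase FDXR by 0.38 (adjusted p = 0.023), and neither passed when any single library other than FOXD1null replicate 1 was left out (log2 fold changes of -0.28 to -0.24 for CAT and -0.40 to -0.30 for FDXR).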
